A study of Saccharomyces cerevisiae with 11 samples.

Results

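Messenger and structural RNA levels were compared between yeast cells that carried either of 2 altered forms of Abf1, LS-15 and NCS-506, while wild-type Abf1 was withdrawn from the nucleus. The comparison used the 2 libraries labelled LS15 and the 2 labelled NCS506, which are 4 of the 11 libraries of the series, and took them by their labels, not by any measured value. All 4 came from the budding yeast strain ABF1-aa-V5 clone A9, listed under the BY4741 background, in which chromosomal Abf1 carries a tag that rapamycin ties to a ribosomal protein anchor, so that it leaves the nucleus. A LEU2 plasmid, pRS315, supplied the LS-15 or the NCS-506 protein. Cells grew to log phase without leucine, took 8 µg/mL rapamycin for 1.25 h and were handled in the same batch. The other libraries served as reference points. They carried wild-type Abf1 (WT; 1 library after 1.25 h in that batch and 1 after 1 h in another batch), an empty plasmid (no Abf1; 3 libraries, 1.25 h) or a construct with a shuffled essential motif (EM shuffle; 2 libraries, 1.25 h). Every strain in the series, WT included, kept the anchored chromosomal Abf1 and received rapamycin, and the variants lacked the first disordered region, IDR1, that wild-type Abf1 has. Replicates were stated to come from independent clones.

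Abf1 is a general regulatory factor, a DNA-binding protein that positions nucleosomes at promoters and insulates neighbouring genes from each other. It is essential for growth, and one of its disordered regions, IDR2, holds a short essential motif. Its known sites lie upstream of many genes for translation, protein folding and amino acid synthesis. LS-15 came from shuffles made to find motifs in IDR2, and NCS-506 from random mutants made to examine how IDR2 is conserved. Both were viable as the only Abf1 of a separate plasmid-shuffle strain. The paper scored both in its lowest growth class of viable constructs, very slow growth. LS-15 also shuffles another stretch of IDR2 that the paper proposes as a further motif, not essential for viability.

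The constructs differ from IDR2 in opposite ways. IDR2 spans 214 residues, from 449 to 662 of Abf1. LS-15 keeps the amino acid composition but shuffles the order outside the motif, so that 55 positions (25.7%) are identical, and the longest shared run is 22 residues, from 558 to 579. NCS-506 came from random mutagenesis and is identical at 201 positions (93.9%). Its 13 substitutions, counted from the first residue of Abf1, are I476T, S477P, N491D, H522Y, D539G, L551P, E560G, Y588H, V607A, S630P, I632T, R652G and K659N. Of these, E560G lies in the 20-residue motif, which is intact in LS-15. LS-15 has 40 acidic, 23 basic and 42 large hydrophobic residues, as IDR2 does. NCS-506 has 39, 21 and 38. The coding DNA of the motif is shown because it is the only stretch of IDR2 that both constructs nearly share. It lies in the coding exon of ABF1 on the plus strand at chrXI:228244-228303 (R64), and capitals mark bases that differ from the genome.

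Genome: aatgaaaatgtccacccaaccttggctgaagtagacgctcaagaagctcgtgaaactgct
LS-15: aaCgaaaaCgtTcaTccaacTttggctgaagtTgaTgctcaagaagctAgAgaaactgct
NCS-506: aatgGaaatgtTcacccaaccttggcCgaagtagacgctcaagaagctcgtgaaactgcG

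LS-15 differs at 9 of these bases and at 0 residues. NCS-506 differs at 4 bases and at 1 residue, the substitution named above.

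The deposited counts totalled 920044 and 1656533 for LS-15 replicates 1 and 2 and 2195476 and 1539493 for NCS-506 replicates 1 and 2, so LS-15 replicate 1 was the shallowest of all 11 libraries. Of 6834 listed features, 5393 had a count of 10 or more in at least 2 of the 4 libraries and were tested. Levels are given as CPM, counts scaled to a common library size with the trimmed mean of M-values, and are not corrected for gene length. All 4 alpha-cell mating genes on the marker list were counted, with summed levels of 478 to 808 CPM. Of 7 a-cell genes, 5 were below the count limit, and the pheromone genes MFA1 and MFA2 had counts between 0 and 4 in the 4 libraries. The transcripts were therefore those of an alpha cell, although BY4741 itself is an a-type strain.

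LS-15 replicate 1 stood apart from its partner. Its distance from LS-15 replicate 2, the root mean square difference in log2 CPM over all tested features, was 0.516. Its distances from the 3 no Abf1 libraries were smaller, at 0.374 to 0.407. LS-15 replicate 2 lay at 0.514 to 0.529 from the no Abf1 libraries, but at 0.365 and 0.409 from the NCS-506 libraries, which were 0.356 from each other. With every library thinned to 920044 counts, LS-15 replicate 1 still lay at 0.363 to 0.399 from no Abf1 and at 0.519 from its partner, whereas LS-15 replicate 2 lay at 0.423 and 0.449 from NCS-506. LS-15 replicate 2 was thus nearer to both NCS-506 libraries than to the library that shares its label.

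**Figure D1:**
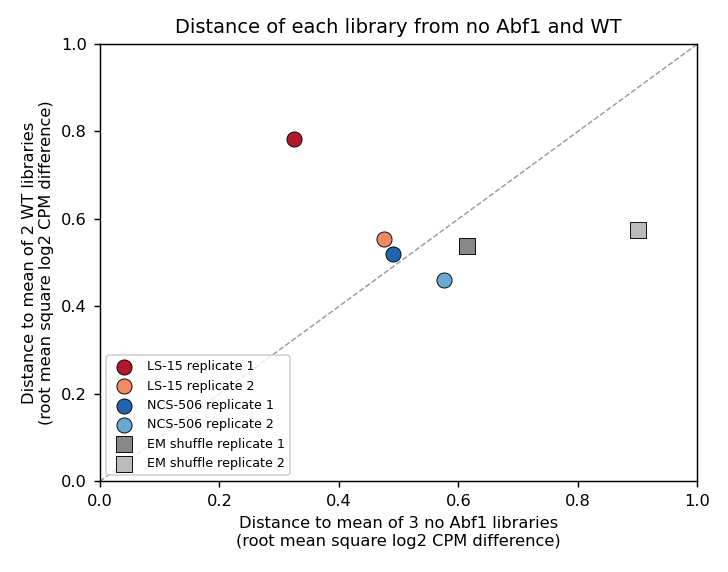
Distance of each LS-15, NCS-506 and EM shuffle library (1 point per library) from the mean of the no Abf1 libraries on the x axis and from the mean of the WT libraries on the y axis, both as root mean square log2 CPM differences, with a dashed line of equal distance. LS-15 replicate 1 lies at 0.325 from no Abf1 and 0.783 from WT, while LS-15 replicate 2 (0.475 and 0.555) lies close to NCS-506 replicate 1 (0.491 and 0.519).

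The gene under study and the plasmid marker were examined first. ABF1 (YKL112W, chrXI) read 354 and 188 CPM with LS-15 and 248 and 219 CPM with NCS-506. The groups overlapped, and the log2 difference, LS-15 minus NCS-506, was 0.20 ± 0.277 (SE; edgeR quasi-likelihood test, Benjamini-Hochberg adjusted p = 0.879). It was −0.31 without LS-15 replicate 1. These reads mix the chromosomal gene with the plasmid copy, and most of the LS-15 IDR2 is recoded, so they do not measure the construct alone. LEU2, a leucine synthesis gene carried by the plasmid, read 237 and 341 CPM with LS-15 and 547 and 536 CPM with NCS-506, against 1170 and 1140 CPM with WT. Both LS-15 libraries lay below both NCS-506 libraries, by −0.90 ± 0.301 (SE) in log2, which did not pass the edgeR test (adjusted p = 0.66; unadjusted p = 0.0114). All 3 no Abf1 libraries read at least 741 CPM for LEU2, so LS-15 replicate 1 was far below them for this transcript although it lay near them over all features.

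No feature was called between LS-15 and NCS-506 in the fit over all libraries. With edgeR's quasi-likelihood test over all 11 libraries, 0 of 5393 features (0%) passed a Benjamini-Hochberg adjusted p of 0.05, and the smallest adjusted p was 0.563. An unadjusted p under 0.05 was found for 395 features (7.32%), 208 of them higher with LS-15 (3.86%) and 187 lower (3.47%). DESeq2 called 3 features and limma on log2(TPM + 1) called 0. Both LS-15 libraries lay above both NCS-506 libraries for 1116 features (20.7%) and below both for 1074 (19.9%). Each LS-15 library was at least 2-fold above each NCS-506 library for 7 of 3967 features averaging 50 counts or more (0.176%), namely ACS1, COX26, CAT2, SPG4, SNR44, SNR47 and SNR49, and at least 2-fold below for 0 (0%). The median 95% interval of a log2 difference was 1.08 wide.

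The count of calls depended on which libraries set the spread. It was 45 without LS-15 replicate 2, when LS-15 replicate 1 stood alone and was assumed to vary like the other groups, and 0 without LS-15 replicate 1. It was 7 without the WT library of the other batch, and all 7 were small nucleolar or spliceosomal RNAs with higher levels in LS-15. A fit of only the 4 libraries called 3 features, CAT2, SNR44 and SNR49, all higher with LS-15.

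ACS1 (YAL054C, chrI), an acetyl-CoA synthetase of cells without glucose, had the largest difference among the 10 genes named on the higher side. It read 365 and 103 CPM with LS-15 and 34.5 and 26.4 CPM with NCS-506. Both LS-15 libraries were high, replicate 1 much more so, and no value overlapped. The log2 difference was 2.89 ± 0.568 (SE; edgeR adjusted p = 0.563), and it was 1.75 without LS-15 replicate 1. CAT2 (YML042W, chrXIII), carnitine acetyltransferase, which carries acetyl units between compartments, read 135 and 110 CPM against 37 and 43.5 CPM. Both LS-15 libraries stood within the no Abf1 range or just beneath it, and the difference was 1.60 ± 0.387 (SE), and 1.46 without LS-15 replicate 1. CAT8, an activator of genes for growth on ethanol, read 180 and 93.7 CPM against 49.5 and 31.1 CPM, with a log2 difference of 1.71 ± 0.451 (SE). SUC2, the secreted enzyme that splits sucrose, read 584 and 399 CPM against 261 and 180 CPM, a difference of 1.15 ± 0.27 (SE). In ACS1, CAT2, CAT8 and SUC2 the absence of overlap with NCS-506 was a condition for naming the gene, so it is not a result. None of these genes was called in that fit.

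Of the other protein-coding genes on the higher side, COX26, a protein associated with cytochrome c oxidase, read 71.9 and 43.8 CPM with LS-15 and 20.8 and 11.2 CPM with NCS-506. PDR10, an ABC transporter of the drug resistance family, read 130 and 124 CPM against 61.2 and 67.6 CPM, the closest agreement between LS-15 replicates among the protein-coding genes on the higher side. YMR206W read 110 and 71.2 CPM against 46.6 and 28.2 CPM. CPP3 read 127 and 71.2 CPM against 41.2 and 28.2 CPM. With LS-15 these 4 genes were 0.98 to 1.77 higher in log2, and each had an edgeR adjusted p of 0.563. They too were named only because their groups did not overlap. In LS-15 replicate 2, all but PDR10 lay between the NCS-506 libraries and the no Abf1 range.

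**Figure D2:**
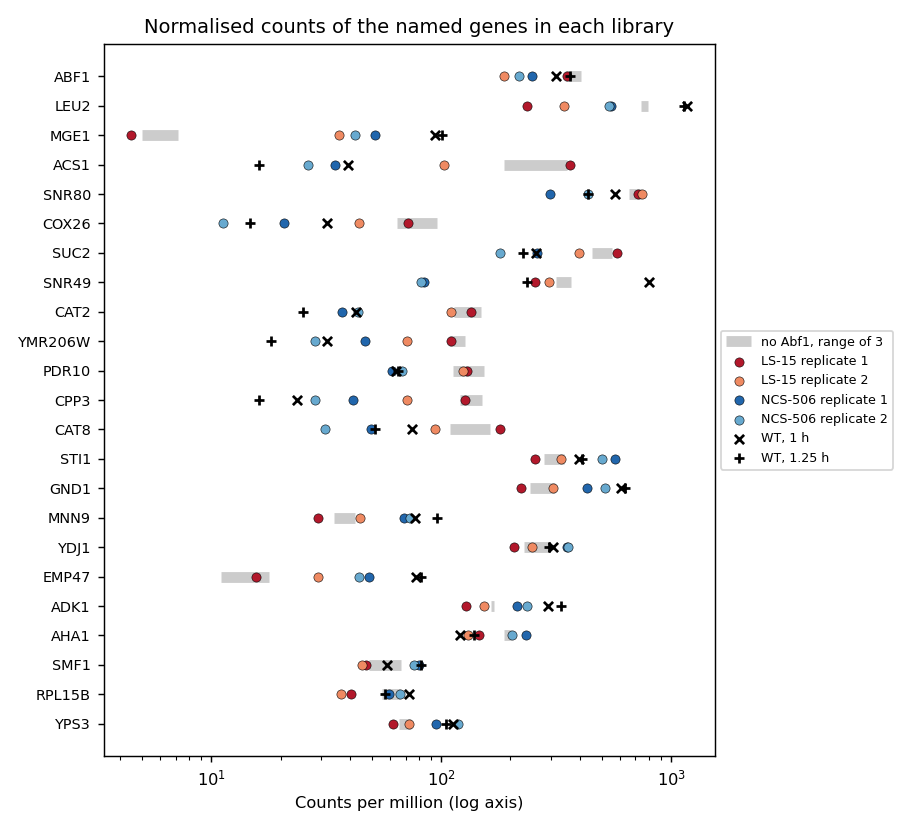
Normalised counts in CPM (log axis) of the 23 named genes in each LS-15 and NCS-506 library (circles) and each WT library (crosses), with a grey bar for the range of the 3 no Abf1 libraries. Of ABF1, LEU2 and MGE1, only ABF1 has LS-15 and NCS-506 circles that overlap. The other genes were named on the condition that these groups did not overlap. LS-15 replicate 1 lies at 4.49 CPM for MGE1, where all other circles are at 35.9 CPM or more.

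Among the 10 genes named on the lower side, STI1 (YOR027W, chrXV), which bridges Hsp70 and Hsp90, had the smallest unadjusted p. It read 256 and 333 CPM with LS-15 and 573 and 501 CPM with NCS-506. The difference was −0.86 ± 0.19 (SE; edgeR adjusted p = 0.563), and −0.69 without LS-15 replicate 1. AHA1, which stimulates the Hsp90 ATPase, read 146 and 131 CPM against 233 and 203 CPM. YDJ1, an Hsp40 that hands clients to Hsp70, read 208 and 249 CPM against 352 and 356 CPM. In both WT libraries STI1, YDJ1 and AHA1 were below both NCS-506 libraries. The EM shuffle libraries read 520 and 637 CPM for STI1, 387 and 420 CPM for YDJ1 and 238 and 172 CPM for AHA1. GND1, the main 6-phosphogluconate dehydrogenase, read 222 and 305 CPM against 431 and 517 CPM, a difference of −0.84 ± 0.202 (SE), and both WT libraries were higher still at 608 and 633 CPM.

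Of the 10 genes named on the lower side, EMP47 and MNN9 had the largest differences. MNN9, a subunit of Golgi mannosyltransferases, read 29.2 and 44.4 CPM with LS-15 and 68.6 and 73.5 CPM with NCS-506. EMP47, a cargo receptor between the endoplasmic reticulum and the Golgi, read 15.7 and 29.2 CPM against 48.3 and 44.1 CPM, with 11 to 17.8 CPM in no Abf1. ADK1, adenylate kinase, read 128 and 153 CPM against 213 and 236 CPM. SMF1, a transporter of manganese and other divalent metals, read 47.2 and 45 CPM against 79.9 and 76.4 CPM, and YPS3, a cell-surface protease, read 61.8 and 72.4 CPM against 94.9 and 118 CPM. RPL15B, a ribosomal protein gene whose reads can be split with its near-identical copy RPL15A, read 40.4 and 36.5 CPM against 59.1 and 66.4 CPM and is uncertain. The log2 differences of the 10 genes of the lower side ran from −0.97 to −0.62, and none was called in that fit (edgeR adjusted p from 0.563 to 0.567).

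Genes with an Abf1 consensus upstream had a lower median in LS-15 replicate 1 than in replicate 2. The consensus (the published Abf1 recognition pattern, searched on both strands within 400 bp upstream of the gene start in R64) was found for 948 of 6021 coding genes (15.7%), and 895 of them were tested. Their median log2 difference was −0.15, against 0 for all tested features. Both LS-15 libraries lay below both NCS-506 libraries for 274 of them (30.6%; 19.9% of all features) and above both for 87 (9.72%; 20.7%). Of the 84 with an unadjusted p under 0.05, 65 were lower with LS-15 and 19 higher, and 0 were called. Over all 5393 tested features, 187 (3.47%) were lower and 208 (3.86%) higher at that limit. Taken by library, the median was −0.26 in LS-15 replicate 1 and −0.06 in replicate 2, relative to the NCS-506 mean. No Abf1 stood at −0.25 and WT at 0.32 on the same scale. Without LS-15 replicate 1 the median of the group was −0.07.

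Large deficits occurred in LS-15 replicate 1 and hardly in replicate 2. Among genes averaging 50 counts or more, 96 of 670 with the consensus (14.3%) were more than 2-fold below the NCS-506 mean in LS-15 replicate 1, and 0 of 670 in replicate 2. Of 3231 coding genes without the consensus, 26 (0.805%) were that low in replicate 1 and 3 in replicate 2. Of all 3967 features averaging 50 counts or more, 122 (3.08%) were that low in replicate 1. In the other direction, 63 of the 3967 were more than 2-fold above the NCS-506 mean in replicate 1. Among the 670 genes with the consensus, 6 were that high. A match is a description of the letters upstream and does not show that the factor is bound.

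**Figure D3:**
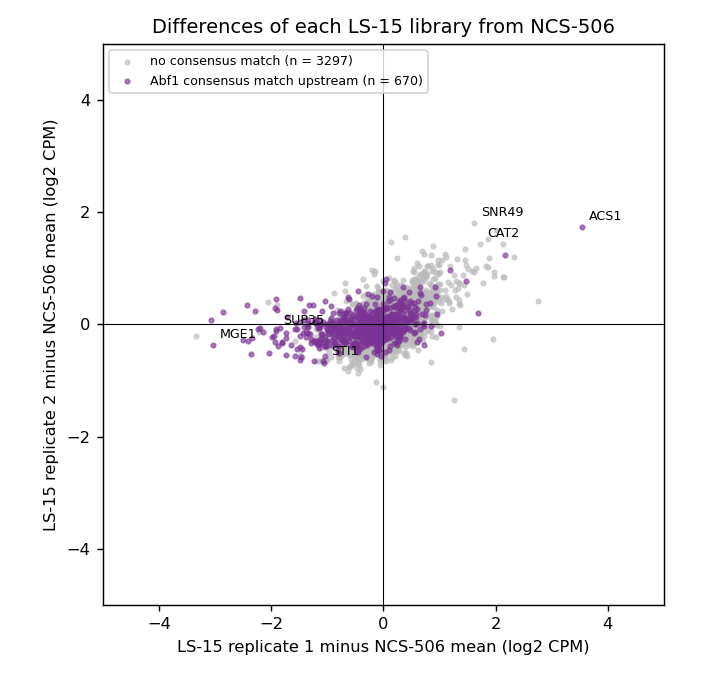
Log2 CPM of LS-15 replicate 1 (x axis) and LS-15 replicate 2 (y axis), each minus the mean of the NCS-506 libraries, for genes averaging 50 counts or more (1 point per gene, purple with an Abf1 consensus match). Both axes subtract the same NCS-506 mean, so part of their agreement is built in. Purple points spread to the left, with 96 of 670 below −1 on the x axis, and 0 of them lie below −1 on the y axis.

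Matches also lay upstream of genes higher in both LS-15 libraries, such as ACS1 (297 bp), CAT8 (252 bp) and GDB1 (358 bp). The matches of 8 other genes are printed as examples. These 8 were more than 2-fold below both NCS-506 libraries in LS-15 replicate 1 but not in replicate 2. The printed matches are read on the strand given. Capitals mark the positions that the consensus specifies, some of which allow a choice of bases. The search fixed these positions, so their likeness is not a result.

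MGE1: ATCACtgaatACG
TRP3: ATCACtgacgACG
CHO1: ATCACtttgaACG
TIF1: GTCACtataaACG
SCL1: ATCACaatagACG
ATP16: ATCACctttaACG
CCT5: ATCACtttacACG
SUP35: ATCATattatACG

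The MGE1 match lies at chrXV:774349-774361 on the minus strand, 211 bp before the gene start. Those of TRP3 (chrXI:38323-38335, minus, 169 bp), CHO1 (chrV:208665-208677, minus, 190 bp) and TIF1 (chrXI:554788-554800, minus, 186 bp) are in the promoters of an enzyme of tryptophan synthesis, phosphatidylserine synthase and a translation initiation helicase. SCL1 (chrVII:475371-475383, minus, 123 bp) encodes a proteasome subunit, ATP16 (chrIV:442837-442849, plus, 179 bp) a subunit of ATP synthase, CCT5 (chrX:555754-555766, minus, 147 bp) a chaperonin subunit and SUP35 (chrIV:808140-808152, minus, 171 bp) a translation release factor.

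MGE1 (YOR232W, chrXV:774573-775259), the nucleotide exchange factor of mitochondrial Hsp70, read 4.49 and 35.9 CPM with LS-15 and 51.6 and 42.3 CPM with NCS-506. LS-15 replicate 1, with 4 counts, lay below the no Abf1 range of 5.01 to 7.19 CPM, and replicate 2 lay just below NCS-506. The difference was −1.04 ± 0.465 (SE; edgeR adjusted p = 0.667). It was −0.39 without LS-15 replicate 1 and −3.35 without replicate 2, when LS-15 replicate 1 stood alone.

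The enzyme genes TRP3, CHO1 and PRO3 also differed between the LS-15 replicates, while the medians of their lists in replicates 1 and 2 were −0.08 and 0.03 for 69 amino acid synthesis genes and −0.09 and −0.02 for 27 phospholipid genes. TRP3 read 5.62 and 60.2 CPM with LS-15 and 54.5 and 59.9 CPM with NCS-506, and no Abf1 read 11.3 to 15 CPM. CHO1 read 18 and 84 CPM against 77 and 64.1 CPM, and no Abf1 read 12 to 15.9 CPM. In both genes LS-15 replicate 2 was above both NCS-506 libraries and replicate 1 below them, and without replicate 1 the difference was 0.08 for TRP3 and 0.25 for CHO1. PRO3, of proline synthesis, had no match in the window and read 5.62 and 60.2 CPM against 63.2 and 77 CPM, with 5.61 to 7.02 CPM in no Abf1.

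TIF1, SUP35, CCT5, SCL1 and ATP16 differed likewise, while the list medians in LS-15 replicates 1 and 2 were −0.17 and −0.01 for translation factors, −0.05 and −0.19 for chaperones and 0.16 and −0.14 for proteasome subunits. TIF1, uncertain because its copy TIF2 is nearly identical, read 25.8 and 117 CPM with LS-15 and 156 and 133 CPM with NCS-506. SUP35 read 74.2 and 262 CPM against 277 and 291 CPM. CCT5 read 36 and 104 CPM against 116 and 131 CPM. In TIF1, SUP35 and CCT5 LS-15 replicate 1 was more than 2-fold below the lower NCS-506 library, and replicate 2 was just below it. SCL1 read 18 and 76 CPM against 92.8 and 76.4 CPM, and ATP16 read 12.4 and 59.6 CPM against 79 and 50 CPM. Without LS-15 replicate 2 the differences were −1.92 for SUP35, −1.76 for CCT5, −2.21 for SCL1, −2.37 for ATP16 and −2.46 for TIF1. Without LS-15 replicate 1 they ran from −0.31 to −0.12. These 5 genes were shown because LS-15 replicate 1 was low, so its differences are not a separate result.

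The same split was seen over genes picked with other libraries. On the 5 WT and no Abf1 libraries alone, 130 genes averaging 50 counts or more had both WT libraries at least 2-fold above all 3 no Abf1 libraries, and 98 of them (75.4%) had a consensus match. The position of a library was set to 0 at the no Abf1 mean and to 1 at the WT mean. The median position was 0.02 in LS-15 replicate 1 and 0.56 in replicate 2, and it was 0.60 and 0.64 in the NCS-506 replicates. LS-15 replicate 1 was at or below the highest no Abf1 library for 90 of the 130 genes, LS-15 replicate 2 for 9, and each NCS-506 replicate for 5. No LS-15 library reached the lower WT library for any of these genes, and NCS-506 did for 4 and 1. Both LS-15 libraries lay below both NCS-506 libraries for 57 of the 130 (43.8%; 19.9% of all features).

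For 72 genes that were at least 2-fold lower in WT than in no Abf1, the libraries were graded. The median position was −0.03 and 0.29 in LS-15 replicates 1 and 2 and 0.42 and 0.65 in NCS-506 replicates 1 and 2. Of these 72 genes, 54 were higher in both LS-15 libraries than in both NCS-506 libraries (75%; 20.7% of all features), and 6 had a consensus match. Over this set the LS-15 medians were 0.99 and 0.47 above the NCS-506 mean in log2 CPM. LS-15 replicate 2 thus stood near NCS-506 for the genes higher in WT. For the genes lower in WT its median was nearer to no Abf1 than that of either NCS-506 library. The NCS-506 medians lay further from each other than LS-15 replicate 2 lay from NCS-506 replicate 1. These medians were not tested.

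**Figure D4:**
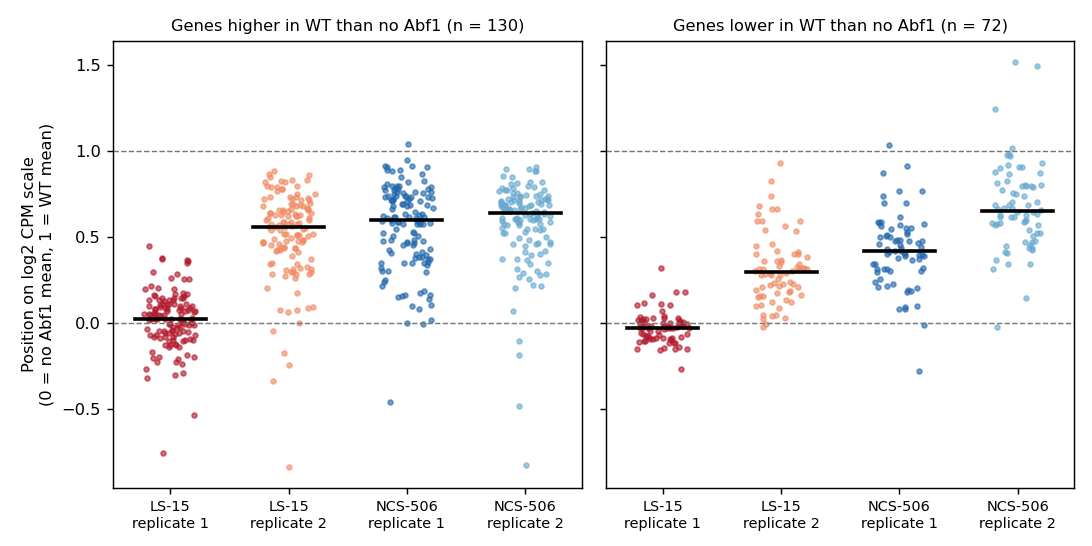
Position of each gene (1 point) in each LS-15 and NCS-506 library between the no Abf1 mean (0) and the WT mean (1) on the log2 CPM scale, with the median as a black bar. Left, 130 genes higher in WT, with medians of 0.02, 0.56, 0.60 and 0.64 from left to right. Right, 72 genes lower in WT, with medians of −0.03, 0.29, 0.42 and 0.65.

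Hydrophilin and stationary-phase stress genes formed the list with the largest median difference among lists of nuclear protein-coding genes. The 39 hydrophilin and stationary-phase genes, which yeast uses on starvation and drying, had a median log2 difference of 0.60, with 21 above without overlap (53.8%; 20.7% of all features) and 1 below (19.9% of all features). HBT1, a protein of the mating projection, read 1560 and 631 CPM with LS-15 and 448 and 273 CPM with NCS-506. SPG4, needed at high temperature in stationary phase, read 280 and 225 CPM against 110 and 42.9 CPM. GRE1, another hydrophilin, read 193 and 37.1 CPM against 41.6 and 18.2 CPM, so that only LS-15 replicate 1 was above NCS-506. The list medians were 0.89 and 0.44 in LS-15 replicates 1 and 2, against −0.61 in WT and 0.76 in no Abf1. NCS-506 replicates differed from each other too, at 0.20 and −0.20. The 46 heat shock proteins and chaperones leaned the other way, with 15 below (32.6%), 3 above (6.52%) and a median of −0.16. Their medians were −0.05 and −0.19 in LS-15 replicates 1 and 2.

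Of the 22 trehalose and glycogen genes, 17 lay above without overlap (77.3%; 20.7% of all features) and 0 below (19.9% of all features), with a median of 0.36. GDB1, the glycogen debranching enzyme, read 1350 and 829 CPM with LS-15 and 560 and 417 CPM with NCS-506. GAC1, which targets a phosphatase to glycogen synthase, read 358 and 221 CPM against 177 and 113 CPM. Of 22 peroxisomal fatty acid oxidation genes, 13 lay above (59.1%; 20.7% of all features) and 0 below, with a median of 0.37. CAT2 led this list, and YAT2, a carnitine acetyltransferase of the cytosol, read 283 and 216 CPM against 139 and 115 CPM. Without LS-15 replicate 1 the medians were 0.43 for hydrophilins, 0.33 for trehalose and glycogen genes and 0.30 for peroxisomal genes. On the deposited TPM scale with 1 added, these medians were −0.16, −0.39 and −0.23, where the median of all tested features was itself −0.50, so the lists remained above all features by 0.34, 0.11 and 0.27.

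Of 25 genes of the TCA and glyoxylate cycles, 11 lay above (44%; 20.7% of all features) and 3 below, with a median of 0.30, or 0.17 without LS-15 replicate 1 and 0.19 without NCS-506 replicate 2. Of 35 glycolysis and fermentation genes 9 lay above (25.7%) and 5 below (14.3%). Of 18 pentose phosphate genes 3 lay above (16.7%) and 4 below (22.2%). Both lists had a median of 0.07 and were near the shares of all features, 20.7% above and 19.9% below. HXT5, a hexose transporter of starved cells, read 365 and 167 CPM with LS-15 and 99.8 and 51.7 CPM with NCS-506. ALD3, an aldehyde dehydrogenase of stressed cells, read 835 and 549 CPM against 354 and 303 CPM, and NDE2, an external NADH dehydrogenase, read 115 and 66.3 CPM against 44.1 and 22.3 CPM. In the pentose phosphate pathway TKL2, the minor transketolase, read 461 and 188 CPM against 150 and 72.3 CPM. GND2, the minor paralog of GND1, read 135 and 28 CPM against 37.9 and 30 CPM, so that it was high in LS-15 replicate 1 alone. TDH1, a minor glyceraldehyde-3-phosphate dehydrogenase, was similar, at 1020 and 280 CPM against 416 and 341 CPM, and its difference was −0.44 without LS-15 replicate 1. GDH2, which breaks down glutamate, read 356 and 224 CPM against 167 and 129 CPM.

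The lists of cytosolic ribosomal proteins, of replication and the cell cycle and of the cell wall leaned to the lower side by small amounts. Of 138 cytosolic ribosomal protein genes, 56 lay below without overlap (40.6%; 19.9% of all features) and 11 above (20.7% of all features), with a median of −0.15. With a library left out that median ran from −0.22 (NCS-506 replicate 1) through −0.09 (LS-15 replicate 1) to −0.04 (NCS-506 replicate 2). Their share of all counts was 5.05% and 5.6% with LS-15 and 5.87% and 6.61% with NCS-506, against 8.31% and 8.89% with WT. RPL6B read 166 and 232 CPM with LS-15 and 275 and 387 CPM with NCS-506. Of 45 genes for DNA replication and the cell cycle, 20 lay below (44.4%; 19.9% of all features) and 3 above, with a median of −0.17. MCM2, a subunit of the replicative helicase, read 34.8 and 36.5 CPM against 46.2 and 57.6 CPM, and CLB1, a mitotic cyclin, read 32.6 and 34.7 CPM against 50.3 and 42.9 CPM. Of 43 cell wall genes, 17 lay below (39.5%; 19.9% of all features) and 3 above, with a median of −0.17, or −0.06 without LS-15 replicate 2 and −0.10 without NCS-506 replicate 2. EXG1, an exoglucanase, read 120 and 153 CPM against 225 and 236 CPM, and DSE4, a daughter-cell glucanase, read 103 and 120 CPM against 171 and 193 CPM. Other growth-related lists were not below more often than all features. Of 123 ribosome biogenesis factors 18 lay below (14.6%) and 5 above (4.07%), with a median of −0.13. Of 71 mitochondrial ribosomal protein genes 13 lay below (18.3%) and 10 above (14.1%), with a median of −0.07.

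The glycine cleavage genes, on the list of purine synthesis because they yield one-carbon units, were alike. GCV1 read 93.3 and 122 CPM with LS-15 and 208 and 172 CPM with NCS-506, GCV2 read 184 and 297 CPM against 396 and 400 CPM, and GCV3 read 68.5 and 81.5 CPM against 114 and 126 CPM. All 3 lay below NCS-506 in both LS-15 libraries, by −0.81 to −0.66 in log2. They were named as the 3 largest falls on that list among genes averaging 50 counts or more. Of the 24 genes on the list, 5 lay below (20.8%; 19.9% of all features) and 2 above (8.33%; 20.7% of all features). The list median was −0.02. RSC4, a subunit of the RSC chromatin remodeler, read 18 and 43.2 CPM against 63.7 and 62.9 CPM. TOM22, of the mitochondrial import channel, read 25.8 and 36.5 CPM against 54.9 and 54.7 CPM, and ERG11, of sterol synthesis, read 155 and 164 CPM against 203 and 267 CPM. Aminoacyl-tRNA synthetases (median −0.34 and −0.06 in LS-15 replicates 1 and 2), ribosome biogenesis factors (−0.37 and 0.05) and RNA polymerase subunits (−0.39 and −0.08) were low in replicate 1 and near NCS-506 in replicate 2.

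**Figure D5:**
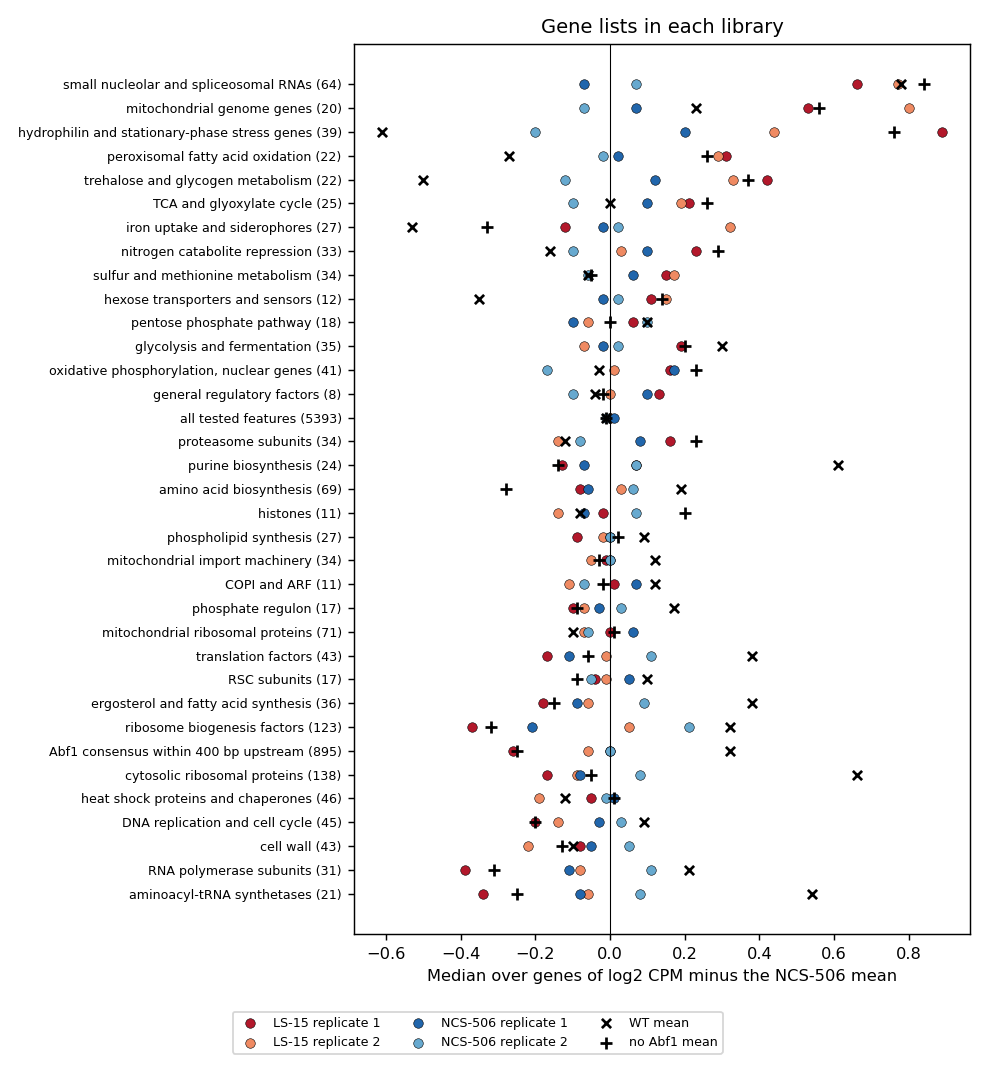
Median over the genes of each list (number tested in brackets) of the log2 CPM of a library minus the NCS-506 mean, for each LS-15 and NCS-506 library (circles) and for the WT and no Abf1 means (crosses). The small RNA list lies at 0.66 and 0.77 in the LS-15 libraries, and the consensus list at −0.26 and −0.06.

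Small nucleolar and spliceosomal RNAs, which guide rRNA modification and form the spliceosome, lay above without overlap almost as often as the trehalose and glycogen genes. Of 64 tested, 49 lay above (76.6%; 20.7% of all features) and 0 below, with a median of 0.66, and 0 were called. Both LS-15 replicates contributed, with medians of 0.66 and 0.77 relative to the NCS-506 mean. The WT and no Abf1 means lay above NCS-506 too, at 0.78 and 0.84. SNR49 read 257 and 294 CPM with LS-15 and 84 and 81.7 CPM with NCS-506, and the difference was 1.74 ± 0.413 (SE), or 1.83 without LS-15 replicate 1. SNR80 read 715 and 747 CPM against 296 and 433 CPM, and SNR44 read 401 and 318 CPM against 92.4 and 129 CPM. SNR14, the U4 RNA of the spliceosome, read 361 and 288 CPM against 114 and 149 CPM. SNR49 read 805 CPM in the WT library of the other batch and 237 CPM in the WT library of the same batch.

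Without that other-batch library SNR49 (adjusted p = 0.00542), SNR44 (0.0243), SNR70 (0.0248), SNR14, SNR43, SNR47 and SNR189 (0.0477 each) passed the edgeR test. SNR70 read 734 and 820 CPM with LS-15 and 317 and 370 CPM with NCS-506. SNR43 read 622 and 667 CPM against 342 and 296 CPM, SNR47 176 and 162 CPM against 76.6 and 78.2 CPM, and SNR189 1060 and 1000 CPM against 535 and 537 CPM. In these 4 RNAs each LS-15 library exceeded each NCS-506 library by far more than the replicates differed. They were named after their values were seen, and leaving out the other-batch WT library was also chosen after seeing the data. The gap is therefore not separate evidence of a difference.

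The same libraries differed in the share of short and mitochondrial RNA as a whole. Small nucleolar and spliceosomal RNAs took 11.7% and 12.3% of all counts with LS-15 and 9.06% and 8.50% with NCS-506. They took 12.3% to 13.3% with no Abf1 and 15.7% and 7.92% with WT. EM shuffle was near NCS-506, at 9.45% and 8.71%. Genes of the mitochondrial genome took 7.52% and 8.67% with LS-15 and 6.11% and 4.98% with NCS-506. Their share was 5.87% and 5.28% with EM shuffle, 7.18% to 8.23% with no Abf1 and 8.52% and 4.4% with WT. Of 20 tested, 15 lay above (75%; 20.7% of all features), with a median log2 difference of 0.66. On the TPM scale with 1 added the medians were −0.01 for small RNAs and −0.06 for mitochondrial genes, which is 0.48 and 0.43 above all features. The part that RNA recovery and library preparation played in these shares was not tested.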

How the data were processed

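The series holds 11 directional libraries made from total RNA. Per the labels and the methods, the authors used STAR for alignment to sacCer3 (R64) and RSEM for quantification, and the versions are not given in the sources used here. The authors deposited whole-number counts, without normalization, and TPM values for 6834 features. The deposited TPM of these features sum to between 8.18% and 14.1% of the full scale, so they are not on a common total. No source used here says whether reads were assigned by strand, which leaves overlapping and antisense genes uncertain. Of the features, 5991 matched the R64 RefSeq annotation.

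The test was edgeR's quasi-likelihood F-test (edgeR 4.0.16, R 4.3.3) with the trimmed mean of M-values, 1 coefficient per construct over all 11 libraries and Benjamini-Hochberg adjustment over 5393 features. Log2 CPM used a prior count of 2. DESeq2 1.42.0 and limma 3.58.1 were alternatives. Plots used Python 3.11.15 with matplotlib 3.10.9. The scripts were tested on simulated counts. Replicates came from separate clones, and their counts differed beyond sampling noise, with a chi-square per feature of 6.11 for LS-15 and 6.43 for NCS-506.

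Named genes were ABF1, LEU2 and MGE1. Then came the 10 called genes with the largest log2 difference in each direction, averaging 50 counts or more and without overlap of the groups, filled up to 10 by the smallest unadjusted p where fewer were called. From each of 37 gene lists up to 3 members a direction with the largest difference and 50 counts or more could be named. Here 0 genes were called, so all 20 are named as not called. SNR43, SNR47, SNR70 and SNR189 were named after their values were seen, and the sets drawn from WT and no Abf1 were added then too. The members and lists were chosen with earlier results of these data known, and no list was tested.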

Additional observations from a re-analysis of the deposited data

How the results depend on the processing

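With 2 libraries a group, the median 95% interval of a log2 difference was 1.08 wide, and LS-15 replicate 1 was the shallowest library. The count of calls between LS-15 and NCS-506 was 0 in the reported fit. It was 3 with only the 4 libraries and 3 with DESeq2 (SNR49, SNR80 and COX26). Leaving out each library of the comparison in turn gave 0 to 45 calls. It was 0 with RLE size factors (edgeR; 399 at an unadjusted p under 0.05), no count filter (479), counts of 10 or more in all 4 libraries (357) or protein-coding genes only (376). With limma it was 0 on log2(TPM + 1) and log2(TPM + 0.1), with 2849 and 2483 at an unadjusted p under 0.05, and the TPM totals were lower in LS-15 (8.24% and 9.76% of the full scale) than in NCS-506 (11.6% and 12.1%). Without small RNA features, chosen after seeing the data, it was 0 (386).

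The replicate number as a block gave 0 calls in the 9 numbered libraries (472 at an unadjusted p under 0.05) and 51 in the 4 libraries alone, chosen after seeing the data, of which 50 were higher with LS-15, among them ACS1, CAT2, CAT8, SUC2 and HXT5. The numbers name separate clones and pair nothing by the labels. The differences between replicates 1 and 2 correlated across 3967 genes at 0.27 between LS-15 and NCS-506, 0.27 between LS-15 and EM shuffle and 0.47 between NCS-506 and EM shuffle, and at −0.22 to −0.15 between no Abf1 and each of these. Without WT replicate 1, also chosen after seeing the data, the count was 7.

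The median log2 difference of genes with an Abf1 consensus match was −0.60 on log2(TPM + 1) and −0.93 on log2(TPM + 0.1), where all features stood at −0.50 and −0.77. It ran from −0.26 to −0.07 with a library left out. Directions of single genes reversed for ABF1 (−0.51, −0.62) and TDH1 (−0.30, −0.33) on the 2 TPM scales. With LS-15 replicate 1 or 2 left out, the differences were −0.31 and 0.62 for ABF1, 0.08 and −3.31 for TRP3, 0.25 and −1.95 for CHO1, −0.44 and 1.45 for TDH1 and −0.29 and 2.00 for GND2.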

Other observations

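Differences between LS-15 and NCS-506 can be formed from library pairs that share no library. Across 3967 genes averaging 50 counts or more, the log2 differences of the replicate 1 pair and of the replicate 2 pair correlated with r = 0.40. For the crossed pairs, LS-15 replicate 1 with NCS-506 replicate 2 and LS-15 replicate 2 with NCS-506 replicate 1, r was 0.16. These values are across genes of the same 4 libraries, and genes are not independent replicates.

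A difference of more than 2-fold from the NCS-506 mean was present for 185 of these 3967 genes (4.66%) in LS-15 replicate 1 and for 39 (0.983%) in LS-15 replicate 2, and 20 genes were beyond 2-fold in the same direction in both.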
